A study of Mus musculus with 20 samples.

Results

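In bulk RNA-seq of mouse brain, 9 genes of the blood-brain barrier were followed, and all 9 were found by symbol among the 55487 genes of the prefrontal cortex table and, through their Ensembl identifiers, among the 57180 of the hippocampus table. They are *Cldn5*, *Ocln*, *Tjp1*, *Lsr*, *Cdh5* and *Esam*, which build junctions between cells, and *Mfsd2a*, *Cav1* and *Plvap*, which bear on caveolae and vesicle traffic across the endothelium. They were looked up by gene symbol. All animals were wild-type C57/BL6 mice aged 2 to 6 months, and tissue was taken 24 hours after dosing. In the prefrontal cortex, 4 libraries came from male mice given lipopolysaccharide (LPS, a component of the outer membrane of Gram-negative bacteria that provokes systemic inflammation) at 5 mg/kg by intraperitoneal injection, and 4 from males given 0.9% saline by the same route. In the hippocampus, 6 libraries came from mice given nicotine at 0.2 mg/kg and 6 from mice given 0.9% saline, and the route and the sex are not given in the labels. The cortex libraries are labelled batch 1 and the hippocampal libraries batch 2, so tissue, batch and agent cannot be told apart, and each agent was compared only with the saline libraries of its own tissue.

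For 4 of the 8 cortex libraries (Samples 2L, 4L, 6L and 8L) the title and treatment field contradict the name of the count column that the same record cites. The column name was used here, which makes Samples 2L, 4L, 5L and 7L LPS and Samples 1L, 3L, 6L and 8L saline. All cortex results below rest on that reading. Values from the 4 libraries whose labels agree (Samples 5L and 7L for LPS, 1L and 3L for saline) are given where they end the call of a member, and for some other genes. Library totals ran between 39871000 and 42924749 counts in LPS cortex and between 36371084 and 46106526 in saline cortex. They ran between 53145736 and 62982229 in nicotine hippocampus and between 51969343 and 68196280 in saline hippocampus. Summed cortical projection neuron markers reached 361 to 530 CPM (counts scaled to library size with TMM factors) in LPS cortex and 318 to 432 CPM in saline cortex, and summed hippocampal neuron markers reached 685 to 997 CPM in nicotine hippocampus and 729 to 941 CPM in saline hippocampus, against 119 to 164 CPM in cortex. Striatal markers varied widely among cortex libraries, between 295 and 1372 CPM in LPS and between 218 and 1063 CPM in saline. In the hippocampus 4 libraries, 2 nicotine (Samples 10N and 11N) and 2 saline (Samples 2N and 5N), held more than 1000 CPM of *Ttr*, the transthyretin transcript of the choroid plexus.

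Endothelial cells of brain capillaries are sealed to one another by tight junctions, whose claudin and occludin strands are anchored to the cytoskeleton by ZO proteins, and by adherens junctions built on VE-cadherin. The same cells carry few transport vesicles: the lipid transporter MFSD2A keeps caveolae scarce, caveolin-1 forms their coat, and PLVAP makes up the diaphragms of fenestrae and caveolae in leakier vessels and is low in mature barrier endothelium. Bulk tissue holds few endothelial cells, and in such libraries fewer cells of a type and less RNA per cell cannot be told apart.

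The genes lie on 7 chromosomes (mm10, GENCODE vM21). *Cldn5* occupies chr16:18776847-18778262 (+), *Ocln* chr13:100496507-100552718 (−), *Tjp1* chr7:65296165-65527781 (−) and *Lsr* chr7:30957770-30973464 (−). *Cdh5* occupies chr8:104101625-104144511 (+), *Plvap* chr8:71497765-71511752 (−), *Esam* chr9:37528078-37538319 (+), *Mfsd2a* chr4:122946850-122961188 (−) and *Cav1* chr6:17306335-17341452 (+). The exons of *Lsr* overlap those of 2 antisense genes, *Gm4673* (43.6% of the exon bases of *Lsr*) and *Gm17077* (25 bases), and because the strand setting of the counting is not given, their reads cannot be told apart. None of the other 8 members shares exon bases with an annotated neighbour.

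RefSeq promoter sequences (GRCm38.p6) matched 6 of the 9 genes, and *Cdh5*, *Esam* and *Plvap* are named only. Shown 5′ to 3′ on the gene's own strand are the 250 bases upstream of the start of the endothelial claudin *Cldn5*, of the transporter *Mfsd2a* and of the caveolar coat gene *Cav1* (first of its 2 entries), because these open the account of the barrier seal, of the brake on vesicle traffic and of the vesicles themselves. Capitals mark a match to the Sp1 motif GGGCGG or its reverse complement CCGCCC.
Cldn5 (chr16:18776597-18776846, +): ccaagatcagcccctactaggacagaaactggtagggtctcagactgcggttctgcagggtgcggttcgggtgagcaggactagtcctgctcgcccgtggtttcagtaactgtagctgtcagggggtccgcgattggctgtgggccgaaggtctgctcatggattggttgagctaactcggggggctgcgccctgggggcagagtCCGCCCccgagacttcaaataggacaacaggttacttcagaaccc
Mfsd2a (chr4:122961189-122961438, −): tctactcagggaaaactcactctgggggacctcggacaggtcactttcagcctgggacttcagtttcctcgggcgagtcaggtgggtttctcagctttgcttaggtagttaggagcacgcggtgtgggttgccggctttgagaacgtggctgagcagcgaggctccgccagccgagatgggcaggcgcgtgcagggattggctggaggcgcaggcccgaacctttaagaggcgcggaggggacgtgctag
Cav1 (chr6:17306085-17306334, +): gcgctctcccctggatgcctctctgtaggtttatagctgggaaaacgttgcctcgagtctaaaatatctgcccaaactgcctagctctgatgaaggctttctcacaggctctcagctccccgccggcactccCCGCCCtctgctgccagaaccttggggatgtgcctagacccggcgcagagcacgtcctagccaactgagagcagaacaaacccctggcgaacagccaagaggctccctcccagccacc
Both strands of these windows were searched for 5 motifs, which do not overlap one another here. The motifs were NF-kB (GGGANTTTC, present in 0.941% of 32851 RefSeq mouse promoters of the same length), Sp1 (32.7%), FOXO (TGTTTAC, 3.17%), TCF/LEF (CTTTGAT, 3.21%) and ETS (CCGGAAG, 6.91%). *Cldn5* and *Cav1* each held 1 Sp1 match and *Mfsd2a* held none of the 5. The windows held 12 CpG dinucleotides in *Cldn5*, 17 in *Mfsd2a* and 10 in *Cav1*, against a median of 6 over all promoters.

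LPS changed the barrier genes of the prefrontal cortex in different directions. Of the 9, 5 rose (*Cdh5*, *Mfsd2a*, *Plvap*, *Esam* and *Cldn5*) and 2 fell (*Cav1* and *Ocln*) at an edgeR quasi-likelihood p under 0.05 after Benjamini-Hochberg adjustment over all genes tested, while *Tjp1* and *Lsr* did not pass. The caveolin gene *Cav1* had the largest change of the 9, 3.74-fold lower in LPS, and *Cdh5* and *Mfsd2a* were 2.54-fold and 2.34-fold higher. This was a comparison in which many genes moved: 21.5% of the 17760 genes tested were called higher in LPS and 19.7% lower, 41.2% in all. The LPS and saline libraries did not overlap in 6 of the 9 genes, against 37.1% of all genes tested. All 9 passed the filter on low counts, and the median log2 change of the 9 was 0.39, beside 0.0092 over all genes tested. The 9 were chosen with earlier results of these data known, so these counts and medians are description only.

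**Figure D1:**
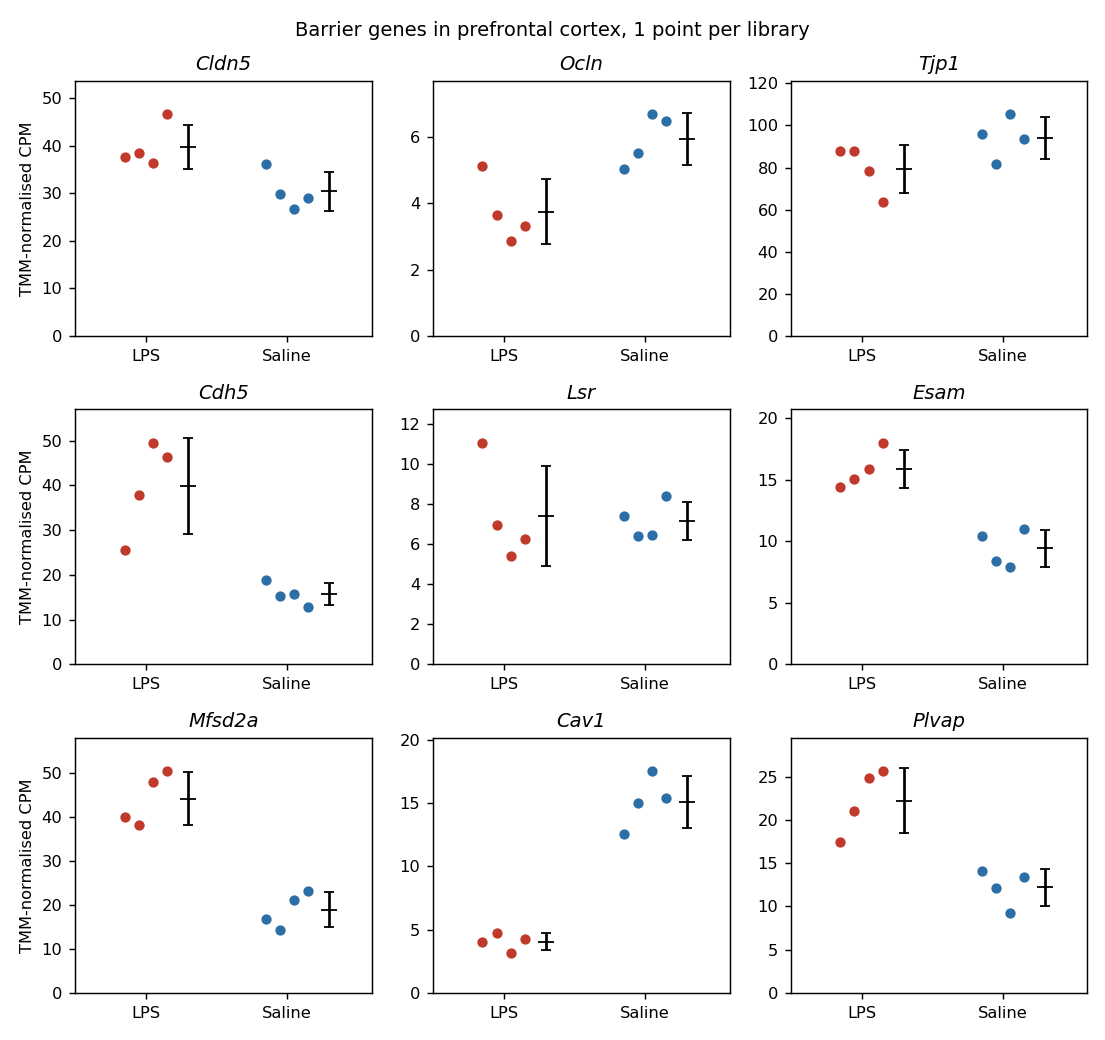
TMM-normalised CPM of each barrier gene in prefrontal cortex, 1 point per library, LPS left of saline, with bars for mean ± SD (n = 4 each). The 4 LPS libraries lie between 3.18 and 4.76 CPM for *Cav1*, below the saline libraries at 12.5 to 17.5 CPM, and above the saline libraries for *Cdh5*, *Esam*, *Mfsd2a* and *Plvap*.

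*Cldn5* encodes claudin-5, the main claudin of brain endothelial tight junctions. In LPS cortex it stood at 37.6, 38.5, 36.3 and 46.6 CPM in Samples 2L, 4L, 5L and 7L, against 36.2, 29.9, 26.7 and 29.0 CPM in saline Samples 1L, 3L, 6L and 8L. The groups only just failed to overlap, with the highest saline library next to the lowest LPS library. The log2 change was 0.39 (SE 0.11, 95% confidence interval 0.14 to 0.63, edgeR adjusted p = 0.0177). That call is the most fragile of the 7: without LPS Sample 7L the adjusted p was 0.0555, without saline Sample 6L 0.0554 and without saline Sample 8L 0.0527, and the 4 libraries with agreeing labels gave 0.140 at a log2 change of 0.32.

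*Ocln* encodes occludin, a membrane protein of the tight junction strand that is also made by epithelia. It had 5.13, 3.64, 2.87 and 3.33 CPM in the LPS libraries (2L, 4L, 5L and 7L), against 5.03, 5.52, 6.68 and 6.46 CPM in the saline libraries (1L, 3L, 6L and 8L). LPS Sample 2L overlapped the lowest saline library and the other LPS libraries lay below all saline libraries. The log2 change was -0.66 (SE 0.19, interval -1.08 to -0.24, edgeR adjusted p = 0.0166).

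*Tjp1* encodes ZO-1, the scaffold beneath both tight and adherens junctions in many cell types. Its values were 88.0, 87.8, 78.2 and 63.4 CPM in LPS and 95.8, 81.5, 105.3 and 93.4 CPM in saline, and the groups overlapped through saline Sample 3L. Its log2 change was -0.24 (SE 0.11, interval -0.49 to -0.0031, edgeR adjusted p = 0.0970). It passed the threshold without LPS Sample 2L (-0.30, adjusted p = 0.0478) and without saline Sample 3L (-0.32, adjusted p = 0.0494).

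*Lsr*, whose product angulin-1 marks the corners where 3 cells meet, had 11.1, 6.94, 5.43 and 6.24 CPM in LPS and 7.41, 6.39, 6.45 and 8.41 CPM in saline. LPS Sample 2L alone stood above every saline library, and LPS Samples 5L and 7L stood below every saline library. The log2 change was 0.052 (SE 0.21, interval -0.40 to 0.51, edgeR adjusted p = 0.862). Without LPS Sample 2L the estimate was -0.21, and it was -0.25 in the 4 libraries with agreeing labels.

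*Cdh5* encodes VE-cadherin, the adhesion protein of endothelial adherens junctions. It had 25.7, 37.9, 49.5 and 46.3 CPM in the LPS libraries and 18.9, 15.3, 15.8 and 12.9 CPM in the saline libraries. LPS Sample 2L was the lowest of its group and still above every saline library. The log2 change was 1.34 (SE 0.19, interval 0.94 to 1.75, edgeR adjusted p = 0.000256), and it kept its call in the 4 libraries with agreeing labels at 1.48.

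*Esam*, an immunoglobulin-family adhesion molecule of endothelial junctions, had 14.4, 15.1, 15.9 and 17.99 CPM in LPS and 10.4, 8.41, 7.95 and 11.0 CPM in saline. The groups did not overlap. Its log2 change was 0.75 (SE 0.13, interval 0.46 to 1.03, edgeR adjusted p = 0.00110).

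Among the genes of vesicle traffic, *Mfsd2a*, the lysophosphatidylcholine transporter that restrains caveolae in barrier endothelium, had 39.9, 38.1, 48.0 and 50.3 CPM in LPS and 16.8, 14.4, 21.1 and 23.1 CPM in saline. Every LPS library stood well above the highest saline library. The log2 change was 1.22 (SE 0.15, interval 0.90 to 1.55, edgeR adjusted p = 0.000116).

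*Cav1*, which encodes the caveolar coat protein caveolin-1, had 4.01, 4.76, 3.18 and 4.22 CPM in LPS against 12.5, 15.01, 17.5 and 15.4 CPM in saline. The highest LPS library lay far below the lowest saline library. Its log2 change was -1.90 (SE 0.15, interval -2.24 to -1.57, edgeR adjusted p = 6.73e-06), and leaving out any 1 library kept it between -1.998 and -1.81.

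*Plvap*, the diaphragm protein of fenestrae and caveolae, had 17.5, 21.1, 24.8 and 25.6 CPM in LPS and 14.1, 12.2, 9.24 and 13.4 CPM in saline. These groups did not overlap, and Sample 2L was again the lowest LPS library. The log2 change was 0.87 (SE 0.15, interval 0.53 to 1.204, edgeR adjusted p = 0.00121). Transcripts of the caveola antagonist and of the diaphragm protein were thus higher in LPS and the transcript of the coat protein lower.

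**Figure D2:**
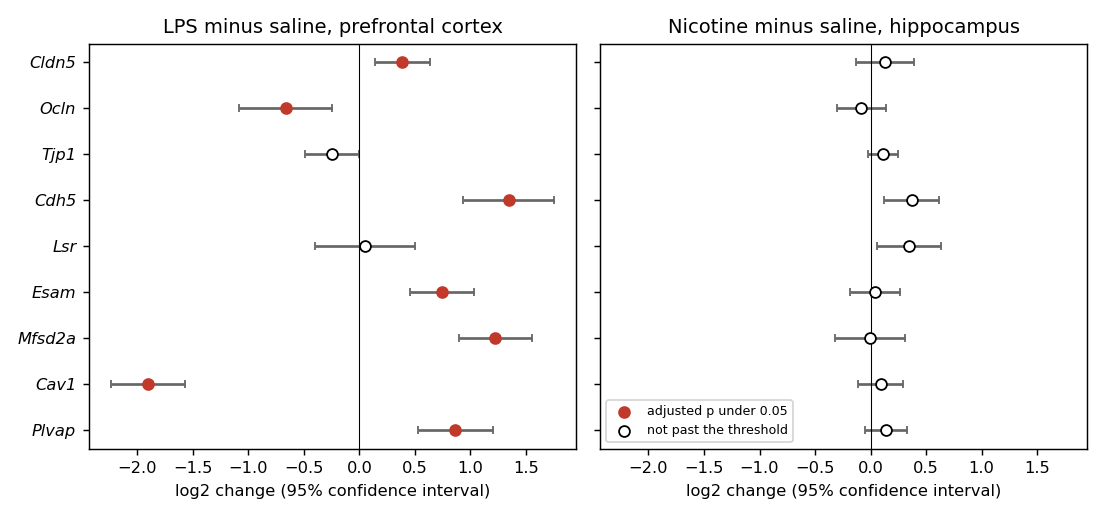
Log2 change of each barrier gene with its 95% confidence interval, LPS minus saline in prefrontal cortex on the left and nicotine minus saline in hippocampus on the right, with filled points at an edgeR adjusted p under 0.05. In cortex the estimates run from -1.90 for *Cav1* to 1.34 for *Cdh5*, and in hippocampus they run from -0.083 for *Ocln* to 0.37 for *Cdh5* with no point filled.

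The 7 called members kept their directions when set against other endothelial transcripts of the same library. Summed over 15 pan-endothelial markers, levels were 240 to 347 CPM in LPS cortex and 227 to 325 CPM in saline cortex, so the groups overlapped. Within that marker list 4 of 15 genes rose and 2 fell, so it was not a constant. Over all genes tested 21.5% were called higher and 19.7% lower. Expressed as log2 CPM minus the mean log2 CPM of the markers in each library, the LPS minus saline difference was -1.93 for *Cav1*, 1.28 for *Cdh5*, 1.204 for *Mfsd2a*, 0.83 for *Plvap*, 0.72 for *Esam* and -0.71 for *Ocln*, and the LPS and saline libraries did not overlap in any of these 6. The libraries overlapped for *Cldn5* (0.35), *Tjp1* (-0.28) and *Lsr* (-0.028). These differences are given as values without a test.

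**Figure D3:**
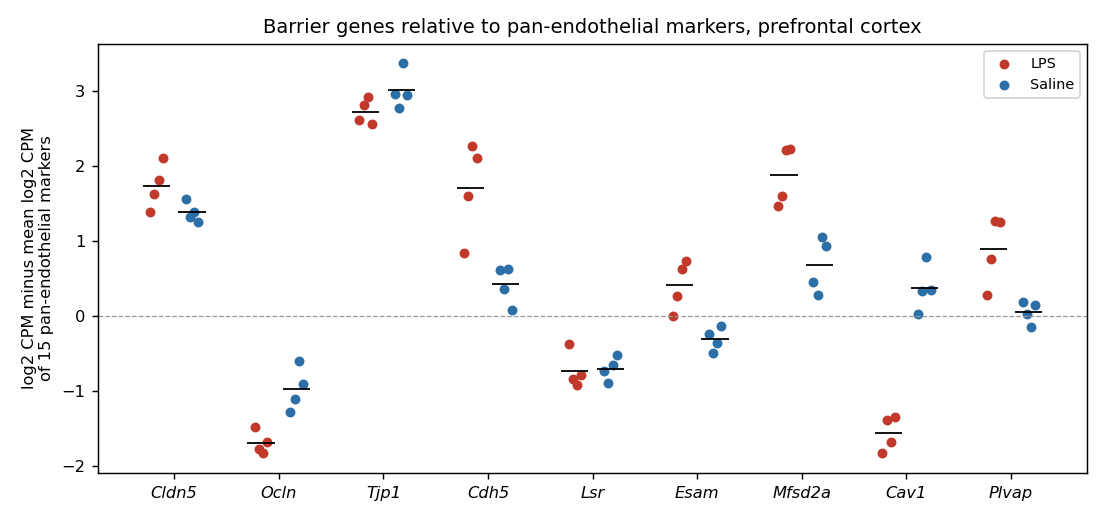
Log2 CPM of each barrier gene minus the mean log2 CPM of 15 pan-endothelial markers in the same cortex library, 1 point per library and a line at each mean, LPS left of saline. *Cav1* averages -1.56 in LPS and 0.37 in saline, and *Cdh5* averages 1.70 in LPS and 0.42 in saline.

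Markers of other cell types also differed among the cortex libraries, in a comparison that called 21.5% of all genes tested higher and 19.7% lower. Summed peripheral leukocyte markers, 11 genes of neutrophils and lymphocytes, were 4.50 to 9.36 CPM in LPS and 1.49 to 4.16 CPM in saline, with *Ly6g* at 0 in saline, and 2 of the 3 genes tested rose. Summed mural cell markers (10 genes) were 168 to 217 CPM in LPS and 213 to 256 CPM in saline, with 1 gene higher and 2 lower. The 2 lower were *Vtn* (38.9 CPM in LPS, 80.8 in saline) and *Cspg4* (10.9 and 20.5), and the higher was *Notch3* (17.0 and 12.9). The mean log2 CPM of the list overlapped, at 3.39 to 4.04 in LPS and 3.63 to 3.96 in saline. Summed meningeal fibroblast markers (8 genes) were 41.4 to 97.7 CPM in LPS and 38.9 to 95.5 CPM in saline, with 1 gene higher and 3 lower of 7 tested. *Igf2* was at 0 in both groups, and also in both hippocampal groups, so absence cannot be told apart from a gene that was not counted. Summed choroid plexus markers (10 genes) were 15.7 to 30.5 CPM in LPS and 16.1 to 21.3 CPM in saline, with 2 of 8 tested higher. Several of these cells also make caveolin-1, occludin or angulin-1, and their part in the member values was not tested.

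Per kilobase of exon, the scale on which genes can be set beside each other, *Cldn5* was the most abundant member in cortex and *Ocln* the least. In LPS cortex *Cldn5* averaged 28.1 ± 3.29 CPM per kb and *Mfsd2a* 19.6 ± 2.66 (SD, n = 4), and neither range overlapped that of the next gene. *Plvap* (11.2), *Tjp1* (10.2) and *Cdh5* (9.48 CPM per kb) followed, then *Esam* (5.52) and *Lsr* (3.42). From *Plvap* to *Lsr* each range overlapped the next, and that of *Lsr* did not overlap that of *Cav1*. *Cav1* (1.17) and *Ocln* (0.886 CPM per kb) came last and overlapped each other. In saline cortex the order was *Cldn5* (21.5), *Tjp1* (12.0), *Mfsd2a* (8.38), *Plvap* (6.15), *Cav1* (4.39), *Cdh5* (3.73), *Lsr* (3.30), *Esam* (3.29) and *Ocln* (1.40 CPM per kb), and all neighbours from *Mfsd2a* to *Esam* had overlapping ranges. *Cav1* thus stood above *Cdh5* in saline, with overlapping ranges, and below it in LPS without overlap.

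Other genes of the same pathways were read from lists chosen for their known roles, with earlier results of these data known. Their counts are therefore given as description beside the shares over all genes. Of 27 partner junction genes, 1 rose and 8 fell with LPS, where 21.5% of all genes tested were called higher and 19.7% lower. The median log2 change of the 27 was -0.071. Lists and named genes were followed over 16 alternatives, without the grouping by title, under which 0 genes were called at all. Over these 16, 0 to 3 partner junction genes were called higher and 4 to 9 lower. The higher count was 0 when LPS Sample 4L or any 1 saline library was left out and 3 without LPS Sample 7L. The lower count was 4 in the 4 libraries whose labels agree. The immunoglobulin-family junction gene *Jam2* fell (50.1 ± 8.70 CPM in LPS, 83.5 ± 6.77 CPM in saline, SD, n = 4 each, log2 change -0.74, edgeR adjusted p = 0.000489), as did *Ptprb*, the phosphatase VE-PTP that acts on VE-cadherin (17.3 ± 3.47 CPM in LPS, 32.1 ± 2.11 CPM in saline, -0.90, adjusted p = 0.000501). *F11r*, which encodes JAM-A, was called higher (10.2 ± 2.01 CPM in LPS, 7.74 ± 0.264 CPM in saline, 0.40, adjusted p = 0.0461). That call was lost in 11 of 16 alternatives, over which its log2 change ran between 0.14 and 0.48. The transcripts of VE-cadherin and of its phosphatase moved in opposite directions.

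Caveolar coat and vesicle genes were mixed, with 2 higher and 4 lower of 14 tested, close to the 41.2% of all genes tested that were called. Their median log2 change was 0.050. Over the same 16 alternatives, which leave out the grouping by title, 4 were called lower each time and 0 to 4 higher. The higher count was 4 without LPS Sample 2L, and 1 when LPS Sample 4L or 5L or any 1 saline library was left out. *Cavin3*, a cavin of the caveolar coat, fell to 8.74 ± 2.03 CPM in LPS against 21.4 ± 1.94 in saline (-1.29, edgeR adjusted p = 0.000104). *Pacsin2*, which bends the membrane at the caveolar neck, fell to 80.3 ± 14.0 CPM in LPS against 142.0 ± 19.8 in saline (-0.82, adjusted p = 0.000510). *Cav2*, the caveolin that assembles with caveolin-1 and named after its value was seen, also fell, by 0.42 (adjusted p = 0.00664). The cavins *Cavin1* and *Cavin2*, named in the same way, were not called. *Cavin1* had 25.6 CPM in LPS and 27.9 in saline (-0.12, edgeR adjusted p = 0.456). *Cavin2* had 9.88 CPM in LPS and 7.71 in saline (0.36, adjusted p = 0.0527). *Ehd1*, an ATPase of endocytic membranes, rose by 0.37 (adjusted p = 0.00531) but missed the threshold in the 4 libraries with agreeing labels (0.0875). The muscle-enriched *Cavin4* was called higher by 0.74, at 1.48 CPM in LPS and 0.879 CPM in saline (adjusted p = 0.0440), and lost the call in 11 of 16 alternatives.

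Genes of Wnt signalling and barrier transcription were mostly lower, with 1 higher and 12 lower of 22 and a median log2 change of -0.40, where 19.7% of all genes tested were lower. Over 16 alternatives 9 to 13 were called lower and 1 to 3 higher, with 2 higher without saline Sample 1L and 3 without LPS Sample 2L. *Wnt7a*, a ligand that brain cells supply to the endothelium, fell to 8.91 ± 1.02 CPM in LPS against 24.6 ± 4.93 in saline (-1.47, edgeR adjusted p = 3.85e-05). *Ndp*, whose product norrin is a ligand of Frizzled-4, fell to 4.32 ± 0.493 CPM in LPS against 8.49 ± 0.177 in saline (-0.98, adjusted p = 0.000187). *Fzd4*, the receptor itself, rose to 23.2 ± 5.95 CPM in LPS against 10.8 ± 1.41 in saline (1.10, adjusted p = 0.000717).

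Of 19 angiopoietin, VEGF and permeability genes, 5 rose and 8 fell, beside 21.5% of all genes tested called higher and 19.7% lower. The median log2 change of the 19 was -0.29. Without LPS Sample 4L 3 were called higher, and over 16 alternatives 3 to 5 were called higher and 7 to 9 lower. *Angpt2*, the antagonist ligand of TIE2 that loosens vessels in inflammation, stood at 5.23 ± 1.16 CPM in LPS and 1.37 ± 0.200 in saline (1.93, edgeR adjusted p = 5.20e-05). *Flt4*, the VEGF-C receptor, rose by 0.88 (adjusted p = 0.00108). *Vegfa*, which opens junctions through VEGFR2, fell to 28.4 ± 2.94 CPM in LPS against 54.5 ± 8.05 in saline (-0.94, adjusted p = 0.000113), and *S1pr1*, a receptor that steadies endothelial junctions and is also made by astrocytes, fell by 0.72 (adjusted p = 6.49e-05). Among the 15 pan-endothelial markers *Robo4*, an endothelial Roundabout receptor (1.07, adjusted p = 0.000744), and *Emcn*, which encodes the sialomucin endomucin (0.82, adjusted p = 0.00213) rose, while *Kdr*, which encodes VEGFR2 (-1.12, adjusted p = 0.000694), and *Tek*, which encodes TIE2 (-1.44, adjusted p = 0.00195), fell. The 4 libraries with agreeing labels left *Emcn* short of the threshold at 0.0621, and called 2 of the markers higher and 5 lower. The endothelial markers thus moved both ways, as the members did. The lists share genes: *Tek*, *Kdr*, *Tie1* and *Flt1* are also angiopoietin and VEGF genes, and *Pecam1* is also a partner junction gene. The falls of *Kdr* and *Tek* are therefore counted in both lists.

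**Figure D4:**
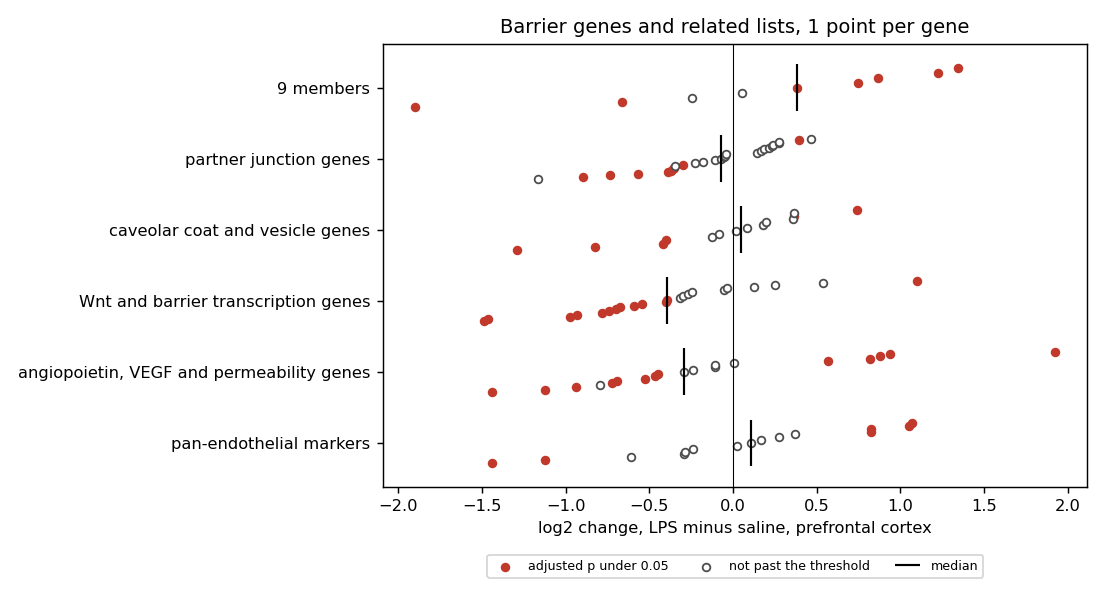
Log2 change, LPS minus saline in prefrontal cortex, of the 9 barrier genes, 4 related lists and the pan-endothelial markers, 1 point per tested gene, with filled points at an edgeR adjusted p under 0.05 and a line at each median. The medians lie between -0.40 for the Wnt and barrier transcription genes and 0.39 for the 9 barrier genes.

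Likeness of profiles over the 8 cortex libraries was measured as the root mean square difference of mean-centred log2 CPM over 14656 genes with a mean of at least 1 CPM. *Plvap* and *Esam* differed by 0.14, which ranked *Esam* 11 among the genes nearest to *Plvap*, and *Plvap* 75 among those nearest to *Esam*. *Cav1* was furthest from *Cdh5* among the members, at 1.66. The nearest genes of all were *Eif6* and *Anxa11* to *Cldn5*, *Fer* and *Cyb5d1* to *Ocln*, *Purg* and *Cep164* to *Tjp1*, *Hecw1* and *Gm16008* to *Lsr*, *Smtnl2* and *Zscan25* to *Cdh5*, *Dpysl4* and *Amer3* to *Esam*, *Ddit4* and *Zfp189* to *Mfsd2a*, *Cfap97d2* and *Mir670hg* to *Cav1*, and *Ripk2* and *Hnrnpdl* to *Plvap*. Their differences ranged from 0.058 for *Eif6* to 0.19 for *Mir670hg*, and the libraries share the treatment contrast and their normalisation.

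In the hippocampus 24 hours after nicotine, no barrier gene was called changed. None of the 18873 genes tested passed in either direction (0%, edgeR, smallest adjusted p = 0.555), while 1577 had an unadjusted p under 0.05, DESeq2 called 15 and limma-voom called 0. All 9 members passed the filter on low counts, 7 of them had a positive log2 change, and the median over the 9 was 0.11 beside 0.0028 over all genes. The nicotine and saline libraries overlapped in every member, and did not overlap in 0.387% of all genes. The median 95% interval of a member extended 0.22 to either side.

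The 2 members with an unadjusted p under 0.05 were *Cdh5* and *Lsr*. *Cdh5* had a lowest, median and highest value of 11.0, 12.0 and 16.5 CPM in nicotine libraries and 8.00, 9.94 and 11.5 CPM in saline libraries, a log2 change of 0.37 (SE 0.12, interval 0.12 to 0.62, edgeR adjusted p = 0.555). All 6 nicotine libraries stood above the saline median, and the groups overlapped at their edges. All 15 pan-endothelial markers also had a positive log2 change with nicotine, 5 of them with an unadjusted edgeR p under 0.05 and 0 called. Their sums were 220 to 286 CPM in nicotine and 179 to 232 CPM in saline. Relative to those markers *Cdh5* differed by 0.19, with overlapping groups.

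*Lsr* had 6.43, 7.21 and 8.38 CPM (lowest, median, highest) in nicotine libraries and 4.55, 5.32 and 7.74 CPM in saline libraries, a log2 change of 0.34 (SE 0.13, interval 0.059 to 0.63, edgeR adjusted p = 0.555). All 6 nicotine libraries again lay above the saline median, while saline Samples 2N and 5N, 2 of the choroid-rich libraries, were the highest saline libraries at 6.91 and 7.74 CPM. Without the 4 choroid-rich libraries the log2 change of *Lsr* was 0.49 (adjusted p = 0.165) and that of *Cdh5* 0.41 (adjusted p = 0.225).

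The remaining junction genes gave the following levels. *Cldn5* had 11.8, 15.8 and 21.8 CPM (lowest, median, highest) with nicotine and 13.1, 15.6 and 16.5 CPM with saline (log2 change 0.13, interval -0.13 to 0.40, edgeR adjusted p = 0.767). *Ocln* had 9.39, 11.3 and 13.7 CPM with nicotine and 9.89, 11.9 and 14.7 CPM with saline (-0.083, interval -0.31 to 0.14, adjusted p = 0.835). Its highest library in each group, 11N and 5N, was choroid-rich. The other choroid-rich libraries, 10N at 11.6 CPM and 2N at 12.4 CPM, stood near libraries that were not, 9N at 12.1 CPM and 4N at 12.2 CPM. *Tjp1* had 102.9, 118.1 and 135.3 CPM with nicotine and 101.9, 111.0 and 114.1 CPM with saline (0.11, interval -0.025 to 0.25, adjusted p = 0.640). For *Cldn5* the saline libraries lay wholly inside the range of the nicotine libraries. *Esam* had 6.46, 7.71 and 8.79 CPM with nicotine and 6.32, 7.92 and 8.75 CPM with saline (0.036, interval -0.19 to 0.26, adjusted p = 0.940).

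Of the vesicle genes, *Cav1* had 11.0, 12.5 and 13.7 CPM (lowest, median, highest) with nicotine and 9.20, 11.6 and 14.5 CPM with saline (0.090, interval -0.12 to 0.30, edgeR adjusted p = 0.803). *Plvap* had 9.40, 11.1 and 12.7 CPM with nicotine and 8.74, 10.1 and 10.9 CPM with saline (0.14, interval -0.050 to 0.33, adjusted p = 0.676). *Mfsd2a* had 15.5, 19.9 and 21.6 CPM with nicotine and 15.7, 17.4 and 30.7 CPM with saline (-0.0037, interval -0.32 to 0.31, adjusted p = 0.996). The *Mfsd2a* estimate rests partly on saline Sample 4N, the highest library, and was 0.17 without it.

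**Figure D5:**
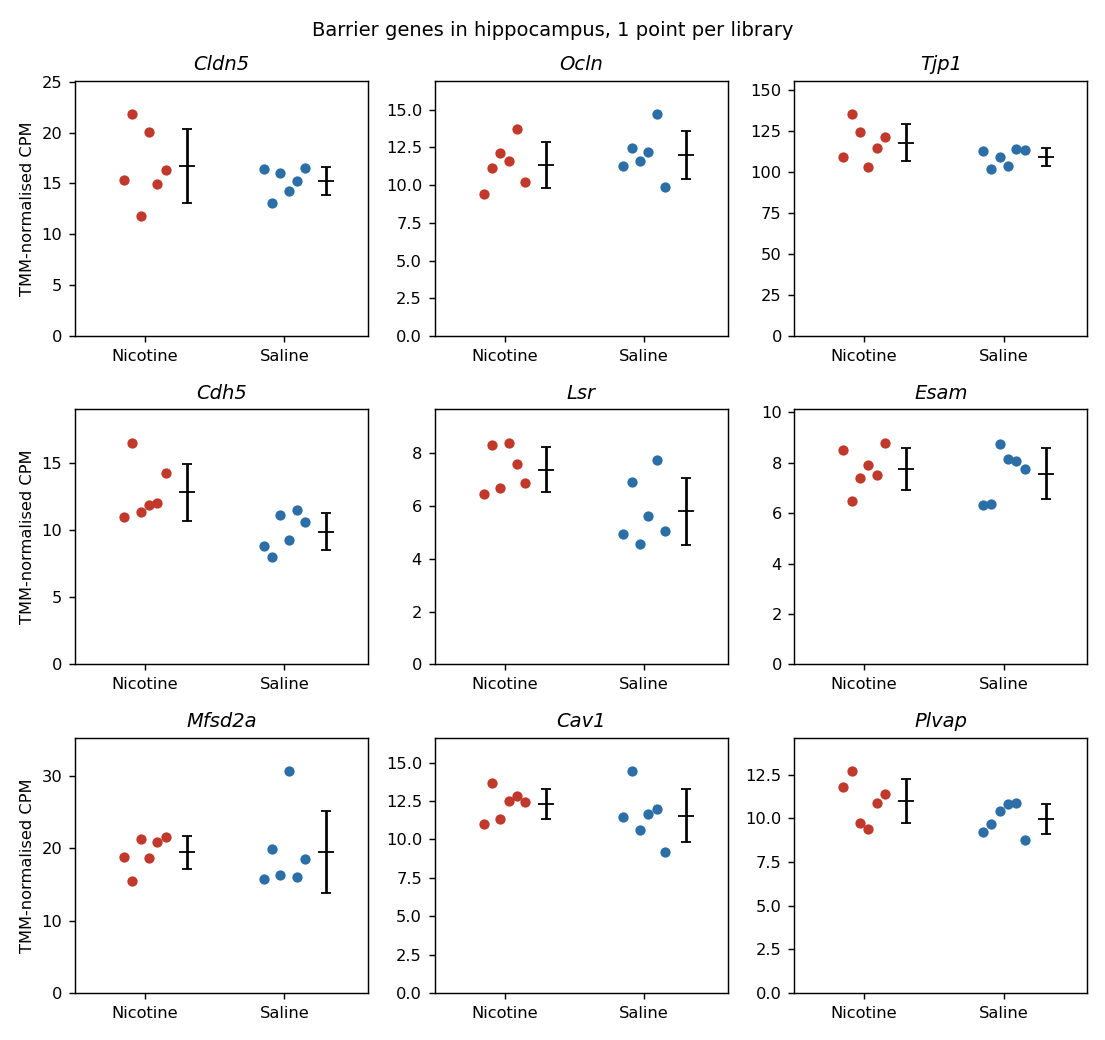
TMM-normalised CPM of each barrier gene in hippocampus, 1 point per library, nicotine left of saline, with bars for mean ± SD (n = 6 each). The groups overlap for every gene, and 1 saline library stands apart for *Mfsd2a* at 30.7 CPM.

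Per kilobase of exon, *Tjp1* led in the hippocampus, at 15.1 ± 1.47 CPM per kb with nicotine and 14.0 ± 0.681 with saline (SD, n = 6), ahead of *Cldn5*, whose range it overlapped with nicotine and not with saline. With nicotine *Cldn5* averaged 11.8 CPM per kb, *Mfsd2a* 8.64, *Plvap* 5.53 and *Cav1* 3.57. With saline *Cldn5* averaged 10.8 CPM per kb, *Mfsd2a* 8.68, *Plvap* 5.01 and *Cav1* 3.36. Only *Cldn5* and *Mfsd2a* overlapped among these neighbours, in both groups. *Ocln*, *Lsr*, *Esam* and *Cdh5* lay between 2.69 and 3.39 CPM per kb with nicotine and between 2.36 and 2.84 with saline, and from *Cav1* down every neighbour in the order overlapped in both groups. The tissues were counted in separate tables and batches, so the hippocampal and cortical levels stand side by side without a comparison. In the related lists 0 genes were called in either direction in the hippocampus. An unadjusted p under 0.05 was held by 3 of 27 partner junction genes and 1 of 15 caveolar genes. It was also held by 3 of 22 Wnt and barrier transcription genes and 1 of 19 angiopoietin, VEGF and permeability genes. The pan-endothelial markers held more, 5 of 15. Over all 18873 genes tested 1577 had one. These counts were not tested and are not read as a response of the lists.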

How the data were processed

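RNA extracted with TRIzol was sequenced from poly(A)-selected libraries (Universal Plus mRNA-Seq with NuQuant), per the labels' protocols. Each tissue had its own table of raw gene counts, deposited by the authors without normalization. The tools fastp, STAR, featureCounts and DESeq2 and the build mm10 are named per the submitters' processing notes. Tool versions, gene models and strandedness of the counting are not given in the sources, so reads of overlapping or near-identical genes may be split between them. Of 57180 hippocampal identifiers, 51933 matched GENCODE vM21. Among cortex rows, 120 symbols were repeated, none of them a barrier gene. All sample columns were used.

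The members and lists were chosen with earlier results of these data known. Cortex and hippocampus went into separate fits with edgeR 4.0.16 (R 4.3.3): filterByExpr, TMM factors, quasi-likelihood test, Benjamini-Hochberg adjustment over all genes tested, threshold 0.05. A standard error is the log2 change divided by the root of F, and levels are TMM-normalised CPM. Log values used a prior count of 2. Alternatives used DESeq2 1.42.0, limma-voom 3.58.1, other scaling factors and filters, each library left out, a replicate block, grouping by title and libraries with agreeing labels. In tests on simulated data the cortex fit over 17760 genes recovered 51 of 100 changes of 1.5-fold and 82 of 100 of 2-fold with 10 false calls. The hippocampal fit over 18873 genes recovered 75 and 97 with 6 false calls. Only these genes, of at least 1 CPM in saline, were changed, a far smaller share than the 41.2% called in cortex. Recovery and false calls at that share were not tested. Named genes were all members and, in each pathway list and in the pan-endothelial list, up to 2 genes per direction with the smallest p among those called at a mean of at least 1 CPM in the higher group. For each member the 2 genes most like it were also named. Outside this rule, the called mural markers *Vtn*, *Cspg4* and *Notch3* and the caveolar genes *Cav2*, *Cavin1* and *Cavin2* were named with their values known. Replicates are biological per the labels, and the tests weigh differences against the spread of these libraries only. No 2 libraries of a group were alike within counting noise (lowest chi-square per degree of freedom 11.0, over genes with at least 20 counts).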

Additional observations from a re-analysis of the deposited data

Results flagged for a closer look

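*Mfsd2a* in the saline hippocampus held 1 library far from the others. Sample 4N stood at 30.7 CPM and the other 5 saline libraries at 15.7 to 19.95 CPM, a gap of 0.717 of the group's whole range, above Dixon's 95% critical value for 6 samples. The nicotine libraries ran between 15.5 and 21.6 CPM. Among the 36 groups tested this was the 1 that stood out, and chance alone marks about 1 in 20 groups.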

How the results depend on the processing

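In cortex, 7313 genes were called (3811 higher in LPS, 3502 lower), between 5690 and 8481 under 16 of the 17 alternatives. Grouping by title instead of column name called 0 genes and 0 members in either direction, and gave log2 changes of -0.038 for *Cldn5*, 0.0030 for *Ocln*, 0.16 for *Cav1* and -0.26 for *Lsr*. In the 4 libraries with agreeing labels 5690 genes and 6 members were called, and *Lsr* was at -0.25. Leaving out 1 library gave 6 to 8 members called and an *Lsr* estimate between -0.21 and 0.17. With the title number as a replicate block 6064 genes and 8 members were called, *Tjp1* among them (-0.25, adjusted p = 0.0327). Libraries of the same number did not deviate together in cortex (correlations -0.22 to -0.041) and did so unevenly in hippocampus (-0.23 to 0.60), so the numbers were not taken as pairs. In hippocampus 0 members were called under any of the 20 alternatives. DESeq2 called 15 genes there (8 higher with nicotine, 7 lower), and edgeR called 0 to 1 genes (0 to 1 lower) when 1 library was left out and 1 (lower) without the 4 choroid-rich libraries. With 1 library left out *Esam* lay between -0.011 and 0.085 and *Mfsd2a* between -0.059 and 0.17. *Mfsd2a* was at 0.044 with limma-voom and 0.030 with the replicate block. *Ocln* with 111 to 214 counts per LPS library and *Cav1* with 123 to 203 were the shallowest members.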
